A study of Mus musculus with 5 samples.

Results

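The genes named Psma, Psmb, Psmc, Psmd or Psme followed by a number were examined for Runx3 binding and H3K4me1 marking in IL-2-activated CD8-TC (CD8+ T cells). They were taken by name from the protein-coding genes of the GENCODE vM1 annotation of mm9, with 1 start for each gene name. This gave 45 genes among 22211 protein-coding starts on the autosomes and X. The names were checked against known roles: Psmc3ip is a meiotic recombination protein and Psme2b-ps carries a pseudogene name, so 43 of the 45 encode proteasome subunits, their activators or their chaperones. The cells were splenic CD8-TC of ICR mice, taken by positive selection on anti-CD8 beads, activated through the TCR with anti-CD3e and anti-CD28 for 2 days and then kept in 100 u/ml IL-2 for 4 days. All 5 libraries shared this treatment: 2 immunoprecipitations with anti-Runx3 antibody, 2 with non-immune serum (NIS) as control and 1 with anti-H3K4me1 antibody. The age of the mice and the number pooled are not given in the sources used here. The labels name 1 H3K4me1 library while their protocol mentions 2 replicate experiments, and the sources used here do not say which the H3K4me1 list was made from.

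The proteasome is the large protease that degrades ubiquitin-tagged proteins. Its barrel-shaped core is built of alpha and beta rings, and some beta subunits carry the catalytic sites. A cap of ATPases and other subunits recognises, unfolds and feeds in substrates, and separate activators (the Psme proteins) can open the core instead. In cells exposed to interferon, and constitutively in many lymphocytes, the catalytic subunits Psmb5, Psmb6 and Psmb7 are replaced by Psmb8, Psmb9 and Psmb10. This immunoproteasome, with the activator subunits Psme1 and Psme2, is known for producing peptides for presentation on MHC class I. Runx3 belongs to the RUNX transcription factors and is needed for the cytotoxic programme of CD8+ T cells, and H3K4me1 is a histone mark found at enhancers and beside active promoters.

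Each list held only the start and end of every called region, called once per antibody on joined reads against joined NIS reads. The depth behind each region is therefore unknown, no value has a replicate error and no test between groups of genes was made. A region counted as near a gene when any base of it lay within the stated distance of the gene start. Intervals are exact Clopper-Pearson 95% intervals for a share and cover counting error only. H3K4me1 regions lay within 5 kb of 7 of 8 T cell marker genes, and also of 1 of 3 B cell genes (Cd79a) and 1 of 4 myeloid and dendritic genes (Itgax). Runx3 regions lay within 5 kb of 6 of 8, 0 of 3 and 0 of 4 of these genes. The part of other cells in the lists was not tested.

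Most proteasome genes had no called region of either kind near their start. Of the 45 genes, 26 had neither a Runx3 nor an H3K4me1 region within 5 kb, 8 had a Runx3 region, 15 had an H3K4me1 region and 4 had both. Over all protein-coding starts, 13.7% had a Runx3 region within 5 kb, 17.0% an H3K4me1 region and 7.02% both. By these counts, regions were not scarcer near the proteasome genes than near all starts. For 5 of the 8 genes with Runx3 the region lay over the start, whereas H3K4me1 lay over 0 of the 45 starts. The map of regions around the 45 starts shows this separation.

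**Figure D1:**
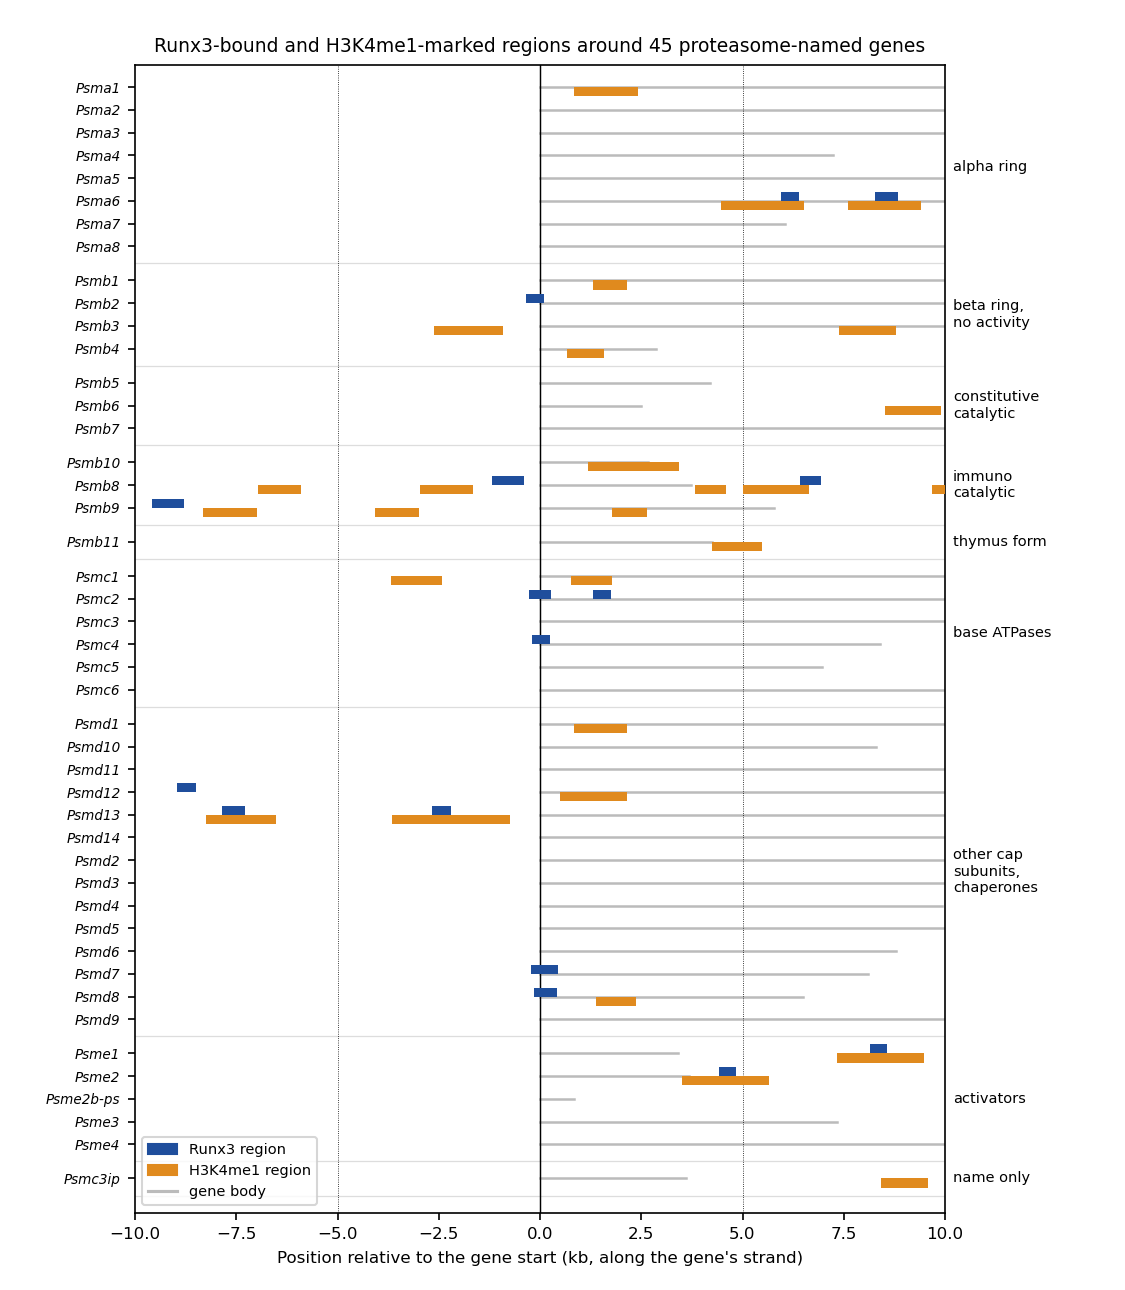
Called regions from 10 kb before to 10 kb after the start of each of the 45 genes (x axis, kb along the gene's strand), with genes in rows grouped by role. Blue boxes are Runx3 regions, orange boxes H3K4me1 regions, grey lines gene bodies and dotted lines 5 kb. Runx3 boxes cover the starts of 5 genes, and no H3K4me1 box covers a start.

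A Runx3 region lay within 1 kb of 6 of the 45 starts (13.3%, interval 5.05 to 26.8%), against 9.46% of all protein-coding starts. Within 5 kb the count was 8 (17.8%, interval 8.0 to 32.1%), against 13.7% of all starts. Runx3 regions covered the start of 5 genes (11.1%, interval 3.71 to 24.1%), against 6.49% of all starts. Both kinds of region lay within 5 kb of 4 genes (8.89%, interval 2.48 to 21.2%), against 7.02% of all starts. Each of these intervals contains the share of all starts. The intervals are wide, so these counts cannot show whether the proteasome genes differ from the background in Runx3.

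Within 5 kb, H3K4me1 was the more frequent of the pair near these genes. Its list is also the larger and the wider, with 18992 regions of median width 1590 bp, against 9135 Runx3 regions of 521 bp. The part of this in the counts was not tested. An H3K4me1 region lay within 1 kb of 7 starts (15.6%, interval 6.49 to 29.5%), against 8.27% of all starts. Within 5 kb it lay near 15 (33.3%, interval 20 to 49.0%), against 17.0% of all starts, and the lower bound of this interval was above the background. No H3K4me1 region covered a member start (0 of 45, interval 0 to 7.87%), where 1.29% of all starts were covered. The H3K4me1 count within 1 kb depended on the extent of the regions, since 0 of the 45 genes had an H3K4me1 region centre within 1 kb. For Runx3 the count by centre was 6. Within 5 kb the counts by centre were 14 for H3K4me1 and 8 for Runx3.

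The counts were also taken by type of promoter. A promoter window, from 250 bases before to 50 after the start, was called CpG-rich when its observed to expected CpG ratio was at least 0.6 and its GC content at least 50%. Of the 45 genes, 29 had such a promoter (64.4%), against 42.1% of all starts. All 6 genes with Runx3 within 1 kb were among the 29, as were 71.7% of all starts with Runx3 within 1 kb. Among CpG-rich promoters alone, Runx3 lay within 1 kb of 6 of 29 members (20.7%) and of 16.1% of all 9357. In the same comparison H3K4me1 lay within 5 kb of 8 of 29 members (27.6%) and of 24.2% of all, beside 33.3% and 17.0% without this restriction. The other members among the 15 with H3K4me1 within 5 kb did not have a CpG-rich promoter. These were Psma6, Psmb4, Psmb10, Psmb11, Psmc1, Psmd1 and Psme2. Promoters that are not CpG-rich were not compared separately with all starts of that type.

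The ribosomal protein genes, another large family of widely used genes, gave values in the same range or higher. Of 84 such genes, 16 had a Runx3 region within 1 kb (19.0%, interval 11.3 to 29.1%) and 26 within 5 kb (31.0%, interval 21.3 to 42.0%). An H3K4me1 region lay within 5 kb of 30 of them (35.7%, interval 25.6 to 46.9%). The intervals of both families overlap for every one of these counts. The median distance to the nearest Runx3 region was 28.7 kb for the proteasome genes, 28.2 kb for the ribosomal protein genes and 72.4 kb for all starts. For H3K4me1 these medians were 13.1 kb, 16.8 kb and 59.1 kb. In the curves of distance both families lie above all starts from 1 kb outwards. For Runx3, CpG-rich promoters lie above the proteasome genes at 1, 2 and 5 kb (16.1, 17.6 and 20.8% against 13.3, 13.3 and 17.8%). From 10 kb outwards they lie slightly below (25.9% against 26.7% at 10 kb). For H3K4me1 they lie below from 1 kb outwards (24.2% against 33.3% at 5 kb).

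**Figure D2:**
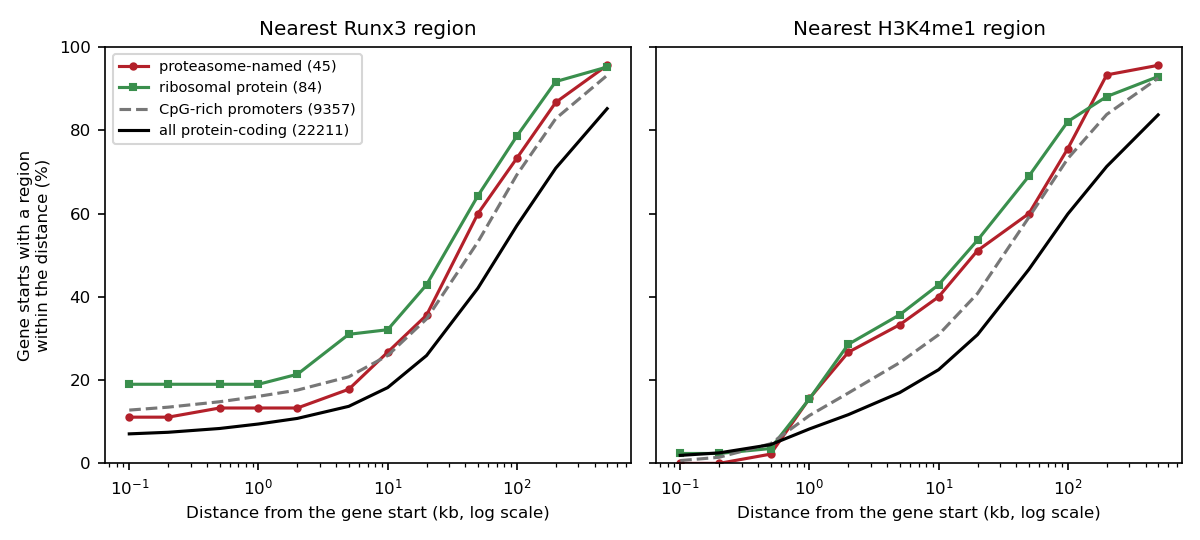
Share of gene starts (y axis, %) with a Runx3 region (left) or an H3K4me1 region (right) within a given distance (x axis, kb, log scale) for the 45 proteasome-named genes, 84 ribosomal protein genes, 9357 starts with CpG-rich promoters and all 22211 protein-coding starts. At 5 kb the proteasome line stands at 17.8% for Runx3 and 33.3% for H3K4me1.

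Where the regions lay relative to the start differed between the antibodies. In all starts, Runx3 cover was highest at the start, where 6.49% were covered, and H3K4me1 cover was low there and rose on both sides. At 1500 bp after the start, H3K4me1 covered 8 of the 45 proteasome genes (17.8%) and 18 of the 84 ribosomal protein genes (21.4%), against 4.63% of all, so this cover was not particular to the proteasome genes. Of the 15 genes with H3K4me1 within 5 kb, the nearest region lay downstream for 12 (80.0%) and upstream for 3, whereas over all marked starts 48.2% lay downstream, 44.2% upstream and 7.56% over the start. In 11 of those 12 genes the downstream region touched the gene's own body, as it did for 93.7% of all starts with a nearest region downstream. The exception was Psmb11, whose region began just past the end of the gene. Over the 15 genes the median distance was 1190 bp, and the 19 H3K4me1 regions within 5 kb were 777 to 2894 bp wide with a median of 1300 bp, against a median of 1470 bp for the 4383 such regions near all starts.

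**Figure D3:**
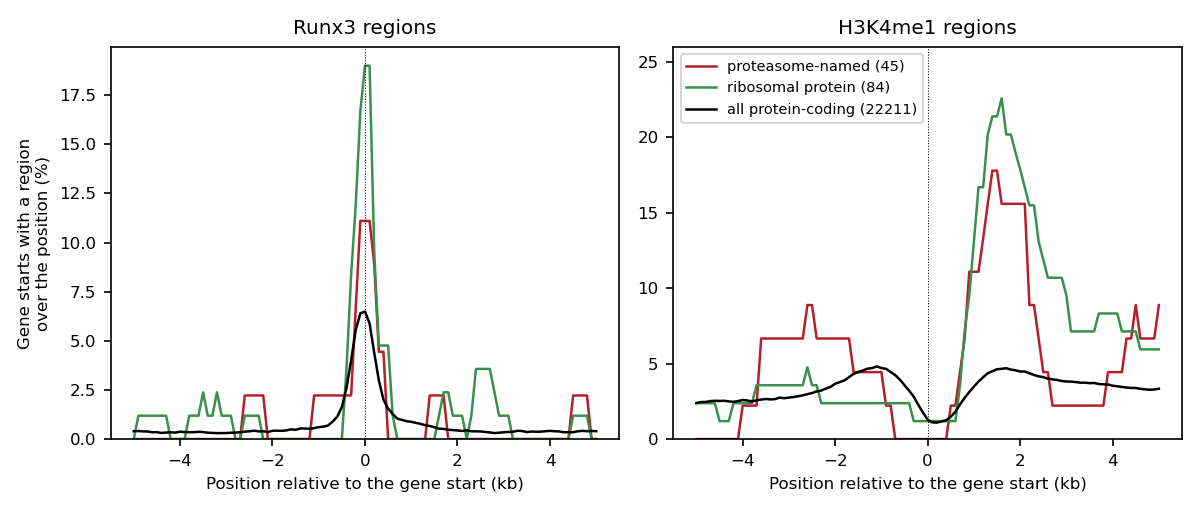
Share of gene starts (y axis, %) with a called region over each position from 5 kb before to 5 kb after the start (x axis, kb), for Runx3 (left) and H3K4me1 (right, with its own y axis). Red is the 45 proteasome-named genes, green the 84 ribosomal protein genes and black all protein-coding genes. The red H3K4me1 line is at 0 over the start and reaches 17.8% at 1.5 kb after it.

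The regions are described below by the part of the proteasome that the gene encodes. In the alpha ring, which forms the outer gate of the core, none of the 8 genes (Psma1 to Psma8) had a Runx3 region within 5 kb of the gene start and 2 had an H3K4me1 region. Psma1 had a region 832 bp downstream of its start, 1578 bp wide and over its own exons and introns. Psma6 had H3K4me1 regions 4458 and 7594 bp downstream, in its intron, and each contained a whole Runx3 region. These Runx3 regions began 5957 and 8265 bp from the gene start, so Psma6 stood just outside the 5 kb limit for Runx3, as Psme2 at 4420 bp stood just inside it. For H3K4me1 the gene just inside was Psma6 at 4458 bp and the gene just outside Psme1 at 7327 bp.

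Psma6 also showed how the choice of start matters. Its gene start is that of its 5′-most transcript, and another of its 2 protein-coding transcripts starts 14553 bp further on. A 371 bp Runx3 region, from 212 bp before to 158 bp after that second start, lay over it and shared 0 bases with H3K4me1, the nearest H3K4me1 region being 4.94 kb away. The gene is not among the 6 or the 8 above, and is the gene added when any annotated transcript start is allowed (7 within 1 kb, against 11.1% of all). The reference sequence around the RUNX motif of this region is shown with the motif in capitals. A RUNX motif here is TGNGGN on either strand with C or T at each N, and on the printed strand it can read as the reverse complement.
Psma6, intron before the second start, chr12:56499674-56499719, plus strand: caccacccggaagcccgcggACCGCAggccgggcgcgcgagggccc

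In the beta ring, the 4 subunits without a catalytic site (Psmb1 to Psmb4) had Runx3 near 1 and H3K4me1 near 3, with no gene having both. A 461 bp Runx3 region covered the start of Psmb2, from 358 bp before to 102 bp after it, at chr4:126354516-126354976. No other protein-coding start lay within 1 kb of it, and the nearest H3K4me1 region was 134 kb away. The region held 1 RUNX motif, from 102 to 97 bp before the start and 28 bp from the centre of the region, in intergenic sequence, which is printed with the motif in capitals.
Psmb2, before the start, chr4:126354752-126354797, plus strand: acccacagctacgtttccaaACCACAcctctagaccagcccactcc

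The other 3 were marked by H3K4me1 without Runx3. Psmb4 had a region 655 bp downstream, 933 bp wide, and Psmb1 a region 1297 bp downstream, 843 bp wide, both inside the gene. Psmb3 had a region 912 bp upstream, in intergenic sequence, and the start of Pcgf2 lies within 1 kb of the same region. Their nearest Runx3 regions were 28.7 kb (Psmb4), 216 kb (Psmb1) and 24.9 kb (Psmb3) away.

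Among the 6 ATPases of the base (Psmc1 to Psmc6), which form the ring that unfolds substrates, Runx3 lay at Psmc2 and Psmc4 and H3K4me1 at Psmc1. Within 5 kb this was 33.3% for Runx3 (interval 4.33 to 77.7%), against 13.7% of all starts. For H3K4me1 it was 16.7% (interval 0.421 to 64.1%), against 17.0%. Both intervals contain the share of all starts. At Psmc2, a 534 bp Runx3 region covered the start at chr5:21290837-21291370, and the start of Dnajc2, a chaperone gene on the opposite strand, lay 32 bp from that of Psmc2 within the same region. To which of these genes the region belongs cannot be told apart. A further Runx3 region of 444 bp lay 1313 bp downstream, inside Psmc2. The nearest H3K4me1 region was 103 kb away. The region at the start held 1 RUNX motif and the downstream region 3, of which 1 lay in a coding exon of Psmc2 and 2 in the intron after it. Both stretches are given with the RUNX motifs in capitals, and the former is limited to the site because it falls in the untranslated part of an exon of Dnajc2.
Psmc2, site at the start, chr5:21290933-21290958, plus strand: ccgcactaccTGTGGTctgagcctcg
Psmc2, downstream region, chr5:21292600-21292835, plus strand: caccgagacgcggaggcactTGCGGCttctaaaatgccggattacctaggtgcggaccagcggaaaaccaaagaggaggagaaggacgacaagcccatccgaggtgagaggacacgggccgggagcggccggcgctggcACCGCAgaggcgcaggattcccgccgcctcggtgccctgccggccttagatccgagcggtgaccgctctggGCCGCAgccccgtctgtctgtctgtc

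At Psmc4 a 435 bp Runx3 region covered the start from 192 bp before to 242 bp after it, at chr7:28834878-28835312. It was the exception among the 9 Runx3 regions within 5 kb of a member, since it held 0 RUNX motifs over its whole length. The other base ATPases had their nearest Runx3 region 10.8 kb (Psmc3) to 129 kb (Psmc6) away. Psmc1, whose product helps to open the gate of the core, had H3K4me1 regions 2426 bp upstream and 758 bp downstream of its start.

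Of the 14 other cap subunits and chaperones (Psmd1 to Psmd14), 3 had a Runx3 region within 5 kb (21.4%, interval 4.66 to 50.8%, against 13.7% of all starts) and 4 an H3K4me1 region (28.6%, interval 8.39 to 58.1%, against 17.0%). Both intervals contain the share of all starts. Psmd8 and Psmd13 had both kinds of region. Psmd7, the lid subunit that pairs with the deubiquitinase Psmd14, had the widest Runx3 region over a member start, 672 bp at chr8:110111941-110112612. It ran from 230 bp before to 441 bp after the start, and the nearest H3K4me1 region was 81.6 kb away. Its 3 RUNX motifs all lay after the start, in the untranslated part, the coding part and the intron. Before the start the region held a match to the antioxidant response element core (ARE, TGACNNNGC), which NRF family factors recognise, and a match to the interferon response element core (ISRE, GAAA and again GAAA after a gap of 2 bases). The coding and intron motifs and the stretch before the start are shown on the gene's strand, with RUNX motifs in capitals in the former and the ARE and ISRE matches in the latter.
Psmd7, RUNX motifs after the start, chr8:110112132-110112219, minus strand: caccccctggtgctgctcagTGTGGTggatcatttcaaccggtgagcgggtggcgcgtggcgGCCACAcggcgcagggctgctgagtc
Psmd7, ARE and ISRE matches before the start, chr8:110112419-110112510, minus strand: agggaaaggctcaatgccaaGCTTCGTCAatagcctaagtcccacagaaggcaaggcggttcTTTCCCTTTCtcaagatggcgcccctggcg

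Psmd8, another lid subunit, had a Runx3 region of 562 bp over its start at chr7:29965277-29965838 and an H3K4me1 region 1381 bp downstream, inside the gene. These regions did not share a base. The Runx3 region held 3 RUNX motifs, 2 of them in the coding part of an exon, which are in capitals here.
Psmd8, coding exon, chr7:29965441-29965507, minus strand: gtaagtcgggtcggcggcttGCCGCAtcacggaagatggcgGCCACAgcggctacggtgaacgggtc

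Psmd13, a lid subunit, was the only member of the cap with Runx3 inside H3K4me1 within 5 kb. Its start lies 341 bp from that of Sirt3, a mitochondrial deacetylase gene on the opposite strand. A 467 bp Runx3 region lay 2192 bp upstream of the Psmd13 start in an intron of Sirt3, at chr7:148065209-148065675, wholly inside an H3K4me1 region of 2894 bp, the widest of the 19. A further Runx3 region, 7282 bp upstream, also lay wholly inside H3K4me1. Near the centre of the closer region a RUNX motif stood 9 bp from the centre, with ETS (CCGGAA) matches on both strands and an ARE match within 100 bases of it, all in capitals in the sequence.
Psmd13, intron of Sirt3, chr7:148065399-148065513, plus strand: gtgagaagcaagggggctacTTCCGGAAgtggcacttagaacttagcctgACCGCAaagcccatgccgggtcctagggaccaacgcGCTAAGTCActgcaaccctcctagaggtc

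The other cap genes with H3K4me1 were Psmd1, a scaffold subunit of the base, at 851 bp, and Psmd12, a lid subunit, at 500 bp, both downstream in the gene's intron. Psmd12 had the H3K4me1 region closest to a member start. The nearest Runx3 regions were 56.2 kb from Psmd1 and 8.49 kb from Psmd12, the latter within 1 kb of the start of Pitpnc1.

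The catalytic subunits differed between the constitutive and the immunoproteasome forms in H3K4me1. Of the constitutive Psmb5, Psmb6 and Psmb7, 0 of 3 had a region of either list within 5 kb. Their nearest H3K4me1 regions were 11.5, 8.52 and 95.1 kb away and their nearest Runx3 regions 33.0, 87.4 and 95.6 kb away. Of the inducible Psmb8, Psmb9 and Psmb10, 3 of 3 had an H3K4me1 region within 5 kb, at 1646 bp upstream, 1779 bp downstream and 1193 bp downstream, and none of them within 1 kb. The H3K4me1 distances of these groups do not overlap, beside the 17.0% of all starts that have a region within 5 kb. With 3 genes in each group, and Psmb8 and Psmb9 neighbours in the MHC, these are values side by side and no test was made. H3K4me1 within 5 kb was also not particular to the inducible forms. Of the beta subunits without a catalytic site, Psmb4, Psmb3 and Psmb1 had a region at 655, 912 and 1297 bp, whereas that of Psmb2 was 134 kb away.

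Runx3 lay near 1 of the 3 inducible subunits. A 795 bp region, the widest Runx3 region within 5 kb of a member, ended 384 bp upstream of the Psmb8 start, at chr17:34333488-34334282. It lay over the last exon of the neighbouring Tap1, which encodes a subunit of the peptide transporter. The same region was the nearest to Psmb9, at 8.78 kb, and Psmb10 on another chromosome had none closer than 37.0 kb. The region shared 0 bases with H3K4me1, although H3K4me1 regions lay at 1646 bp upstream and at 3821 and 5000 bp downstream of the Psmb8 start. It held 5 RUNX motifs, more than any other Runx3 region within 5 kb of a member. The 2 in the coding part of the exon are given in capitals.
Psmb8, coding exon of Tap1, chr17:34333581-34333716, plus strand: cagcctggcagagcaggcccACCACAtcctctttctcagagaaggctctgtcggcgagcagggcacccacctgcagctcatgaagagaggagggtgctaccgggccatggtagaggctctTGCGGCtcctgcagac

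Psmb9 and Tap1 start 211 bp apart on opposite strands. No Runx3 region lay within 5 kb of this shared start, while H3K4me1 regions lay on both sides, 1779 bp into Psmb9 and 2989 bp away inside Tap1. At Psmb10 the H3K4me1 region was 2252 bp wide and ran over the end of the gene. Psmb11, the catalytic subunit used in thymus epithelium, had an H3K4me1 region 4252 bp downstream and its nearest Runx3 region 25.7 kb away. It lies next to Psmb5 on chromosome 14, and the same pair of regions was the nearest to both genes.

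The interferon-inducible activator genes Psme1 and Psme2 lie close together on chromosome 14 and shared their nearest regions. A 432 bp Runx3 region at chr14:56205099-56205530 lay wholly inside an H3K4me1 region of 2164 bp. This Runx3 region lay 4420 bp downstream of the Psme2 start and 8139 bp downstream of the Psme1 start. It was intergenic and lay within 1 kb of the start of Fam158a. It held 4 RUNX motifs, of which 2 stood side by side without a gap and a further motif followed downstream within 100 bases. This stretch is shown on the strand of Psme2 with the motifs in capitals.
Psme2, intergenic downstream region, chr14:56205356-56205465, minus strand: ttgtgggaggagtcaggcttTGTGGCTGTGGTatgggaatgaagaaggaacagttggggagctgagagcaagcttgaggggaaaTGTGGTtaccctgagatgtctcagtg

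The other activator genes had no region near. Psme3, the activator of the nuclear proteasome, had its nearest Runx3 region 121 kb and its nearest H3K4me1 region 41.6 kb away, and Psme4 stood at 581 kb and 577 kb. For Psme2b-ps the distances were 47.8 and 10.7 kb and for Psmc3ip 24.0 and 8.41 kb. Over the 5 immunoproteasome genes (Psmb8, Psmb9, Psmb10, Psme1 and Psme2), Runx3 lay within 5 kb of 2 (40.0%, interval 5.27 to 85.3%), against 13.7% of all starts, which this interval contains. H3K4me1 lay within 5 kb of 4 (80.0%, interval 28.4 to 99.5%), against 17.0% of all starts. These intervals treat the 5 genes as independent, but Psmb8 and Psmb9 are neighbours and Psme1 and Psme2 share their nearest regions. The intervals are therefore too narrow, and the difference from all starts was not tested.

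**Figure D4:**
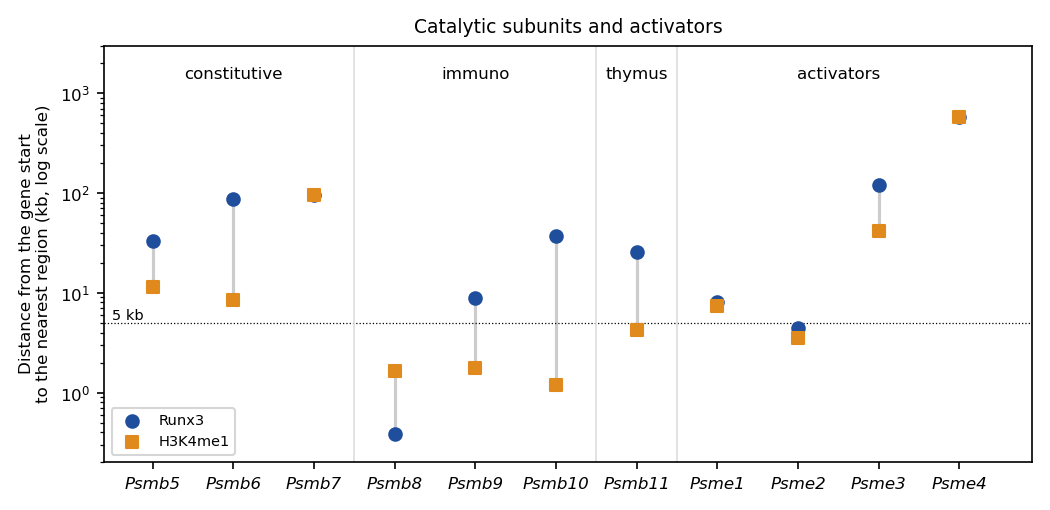
Distance from the gene start to the nearest Runx3 region (blue circles) and H3K4me1 region (orange squares) for 11 catalytic subunit and activator genes (y axis, kb, log scale). The dotted line marks 5 kb and grey lines join the values of a gene. Psmb8, Psmb9 and Psmb10 have an H3K4me1 region below the line and Psmb5, Psmb6 and Psmb7 do not.

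The remaining genes with neither region within 5 kb were 6 of the alpha ring, 3 base ATPases (Psmc3, Psmc5 and Psmc6) and 9 of the Psmd genes. Over all 26 such genes the median distance was 84.9 kb to the nearest Runx3 region (range 8.14 to 581 kb) and 56.4 kb to the nearest H3K4me1 region (range 7.33 to 578 kb).

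The overlap of Runx3 with H3K4me1 near the proteasome genes was set beside that near all starts. None of the 6 Runx3 regions within 1 kb of a member shared a base with an H3K4me1 region, against 13.4% of the 1909 such regions near all starts. Within 5 kb it was 2 of 9 (22.2%), against 28.7%, and within 10 kb 6 of 14 (42.9%), against 38.0%. Counted by gene, 2 of the 6 members with Runx3 within 1 kb had an H3K4me1 region within 5 kb (33.3%), against 42.0% of all starts with Runx3 within 1 kb. Of the 37 members without Runx3 within 5 kb, 11 had H3K4me1 within 5 kb (29.7%), against 11.6% of all such starts. Conversely, 4 of the 15 H3K4me1-marked members had Runx3 within 5 kb (26.7%), against 41.2% of all marked starts. These counts are small, and their difference from the background was not tested.

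Of the 9 Runx3 regions within 5 kb of a member, 8 held a RUNX motif (88.9%), against 91.3% of the regions near all starts. In the central 200 bp it was present in 7 (77.8%), against 74.2%. In the promoter windows of the genes themselves the motif was present for 3 of the 6 members with Runx3 within 1 kb (50%) and 21 of the other 39 (53.8%). Over all starts it was present in 45.3% of windows and in 62.0% of those with Runx3 within 1 kb. It was found in the windows of Psmb5, Psmb6, Psmb7, Psmb9 and Psmb10, which had no Runx3 region within 5 kb, and not in that of Psmb8. The windows do not hold all of the bound sequence. The Runx3 region of Psmb8 ended 384 bp upstream of its start, outside the window, and held 5 RUNX motifs. At Psmd7 the 3 motifs of the region lay more than 50 bases after the start. The window counts therefore cannot show whether the bound regions hold the motif.

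Of the other motifs searched on both strands in the promoter windows, ETS (CCGGAA) was found in 20 of 45 (44.4%), against 17.5% of all starts and 35 of 84 ribosomal protein genes (41.7%). The ARE core was present in 7 (15.6%, against 12.5%), namely Psmb2, Psmb5, Psmb6, Psmc6, Psmd7, Psmd9 and Psmd12. The ISRE core was present in 5 (11.1%, against 3.77%), namely Psma4, Psmb3, Psmd4, Psmd7 and Psmd9, and the STAT core (TTCNNNGAA) in 4 (8.89%, against 7.95%), namely Psmb8, Psmd1, Psmd2 and Psmd3. For the ribosomal protein genes the shares were 11.9% (ARE), 7.14% (ISRE) and 4.76% (STAT). Among the 5 immunoproteasome genes the ETS, ARE and ISRE cores were found in 0 windows, RUNX in 3 and STAT in 1. CpG-rich sequence holds more CG-containing letters, and the part of base composition in these shares was not tested. A match says only that these letters are present in the reference genome, which is not that of ICR mice. An absence covers only these exact letters in the window at the gene start used here. Other forms of a motif, other transcript starts and more distant sequence were not searched for these shares.

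**Figure D5:**
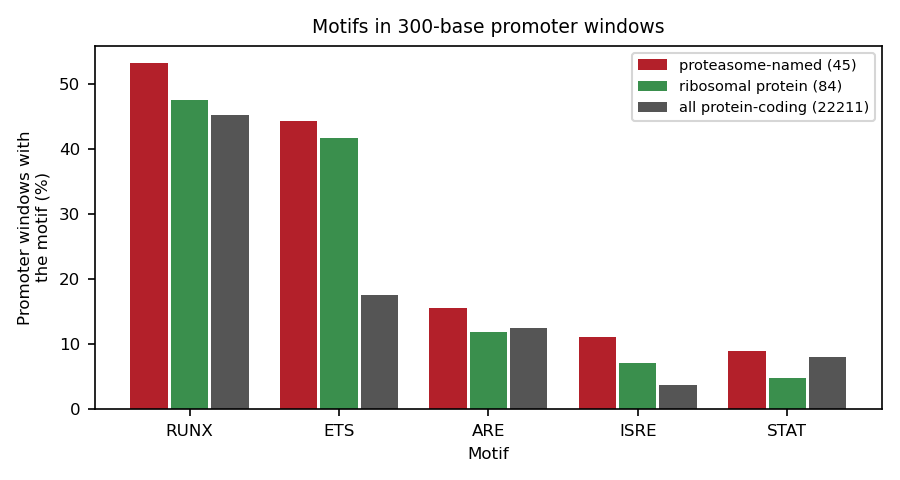
Share of promoter windows (y axis, %), from 250 bases before to 50 after the start, that hold each motif (x axis) on either strand, for 45 proteasome-named, 84 ribosomal protein and all 22211 protein-coding genes. The ETS bars stand at 44.4%, 41.7% and 17.5%.

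Genes that act with the proteasome were counted in the same way. Of 14 assembly and associated genes found in the annotation, 3 had Runx3 within 5 kb (21.4%, against 13.7% of all starts) and 6 had H3K4me1 (42.9%, against 17.0%). These shares were not tested against the background. Runx3 covered the starts of Shfm1, a small cap subunit, and Uchl5, a deubiquitinase of the cap, and lay 3.48 kb from Psmg1, an assembly chaperone. H3K4me1 lay near Psmg1, the ubiquitin receptor Adrm1, the transcription factors Nfe2l1 and Nfe2l2, and Ddi2 and Ngly1, which process Nfe2l1. Nfe2l1 drives the known compensatory rise of proteasome genes when the protease is inhibited, and its H3K4me1 region was 2.46 kb and its nearest Runx3 region 94.9 kb from the start.

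Of 11 antigen processing genes counted, 4 had Runx3 within 5 kb (36.4%, against 13.7% of all starts) and 6 had H3K4me1 (54.5%, against 17.0%), again without a test. Both lay near the transporter subunit Tap2 (Runx3 0.606 kb away, H3K4me1 over the start), the loading factor Tapbp (4.56 and 0.346 kb), the chaperone Calr (over the start and 0.734 kb) and the MHC class I gene H2-D1 (3.08 kb and over the start). Tap1 and Irf1, a transcription factor of the interferon response, had H3K4me1 within 5 kb without Runx3. Tap1 and Tap2 lie beside Psmb9 and Psmb8, so that their regions are in part the same as those described above.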

How the data were processed

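Runx3, H3K4me1 and NIS control ChIP-seq of CD8-TC was made by the authors. Reads were aligned to mm9 with ELAND, uniquely aligned reads of the repeats were joined, and peaks were called with MACS after the larger of the antibody and NIS read sets had been scaled down. The deposited lists used here give peak positions (bp on mm9) and no height or score. Joining hides the spread between repeats, and regions in repeated sequence may be missed.

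Gene starts were taken from GENCODE vM1 on NCBIM37, which is mm9, as the 5′-most of the 22350 protein-coding records of each gene name, chromosome and strand. The 45 genes came from 47 records. Positions are counted from 1, and overlap required at least 1 bp. Genes were named when either list had a region within 5 kb, and Psmb5 to Psmb11, Psme1 to Psme4 and Psmc3ip in every case. The genes and lists were chosen with earlier results of these data known, and some listed genes are not reported here. Comparisons were counts beside the same count over all protein-coding starts, without tests. Alternatives were region centres, other starts, windows and region widths, with every gene record, no Psme2b-ps and CpG-rich promoters added after the data were examined. Tools were pysam 0.24.0, pandas 2.3.3, NumPy 2.4.6, SciPy 1.17.1 and matplotlib 3.10.9 under Python 3.11.15. Counts and distances were tested on simulated data.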

Additional observations from a re-analysis of the deposited data

How the results depend on the processing

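The lists hold called regions without read numbers, so the depth at each region and the precision of its call are unknown. The authors gave only total read numbers for each antibody, which were lower in IL-2-activated than in resting CD8-TC. A gene without a region may have binding under the calling limit. Leaving out a replicate and a stricter score were not possible, because reads had been joined before calling and the lists give no score. No paired analysis was possible because the result comes from no test and the lists carry no replicate numbers. Of 47 recomputed counts over 7 results, 36 stayed within 1.5 times the reported count and 11 did not. The percentages in this paragraph are the shares of all starts counted in the same way, not those of the members. With only regions at least as wide as the median of their list, Runx3 within 5 kb fell to 4 of 45 genes (against 7.92% of all starts). H3K4me1 within 1 kb fell to 3 of 45 (against 3.14%) and H3K4me1 within 5 kb to 7 of 45 (against 8.42%). By region centre, H3K4me1 within 1 kb gave 0 of 45 genes (against 3.04% of all starts), and with a 2 kb window 12 of 45 (against 11.7%). Without genes that have another protein-coding start within 1 kb, Runx3 within 5 kb gave 5 of 36 members, against 12.4% of all such starts. With CpG-rich promoters alone, H3K4me1 gave 4 of 29 within 1 kb and 8 of 29 within 5 kb, from fewer genes. With a 10 kb window, 6 Runx3 regions overlapped H3K4me1 and 4 immunoproteasome genes had Runx3, and with Psmb8, Psmb9 and Psmb10 alone 1 had it. The cause was not tested where the number of genes or the window does not set it.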
